A study of Bos taurus with 12 samples.

Results

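The 37 genes of the bovine mitochondrial genome were examined in RNA-seq libraries of expanded blastocysts. They were taken as every row of the deposited table whose locus tag belongs to the mitochondrial sequence, with no use of the counts, and make up 37 of the 32637 genes listed. They comprise 13 mRNA genes, 2 rRNA genes and 22 tRNA genes. The embryos were produced in vitro from oocytes of slaughterhouse ovaries, fertilized with semen that came in rotation from 2 bulls, and collected as expanded blastocysts on Day 7 or Day 8. Each embryo was cut, one piece was sexed by PCR and the other, with inner cell mass and trophectoderm, was sequenced. A library is a pool of 2 such pieces of one sex, and there were 6 female and 5 male libraries. Neither sex received a treatment, and the comparison asked which RNAs differ between male and female embryos at this stage. A pool mixes embryos, the labels do not say which bull or which day it came from, and a difference between libraries can therefore not be assigned to 1 embryo.

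Mitochondrial DNA is a small circle inherited through the oocyte. Both of its strands are transcribed into long precursors that run over many genes, and the tRNAs that sit between the other genes are cut out to free the mRNAs and rRNAs. All mRNAs code for subunits of the respiratory chain and ATP synthase, the machinery of oxidative phosphorylation, while the remaining subunits and every factor that copies, transcribes, trims and translates this genome are made in the nucleus. In early embryos, mitochondria derive from the oocyte, and oxidative phosphorylation is known to gain weight as the blastocyst forms.

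In the RefSeq annotation of ARS-UCD2.0, the genes lie on chromosome MT from position 364 to 15791, almost without gaps. The order starts with KEH36_t01 (364 to 430), 12S rRNA (431 to 1385), KEH36_t02 (1386 to 1452) and 16S rRNA (1453 to 3023), which follow each other without a base between them. The rRNA genes carry no names in that annotation and were told apart by length, the shorter one of 955 bases being 12S and the longer one of 1571 bases 16S. The tRNA genes are named here by locus tag, because the annotation at hand pairs them with no amino acid. Some neighbours share bases. ATP8 and ATP6 have 40 bases in common, ND4L and ND4 have 7, and ND5 and ND6 have 17. Reads in such stretches can belong to either gene, and the counting rule for them is not given in the sources used here. The same holds for strand, so reads of ND6, which is read from the other strand, cannot be separated from reads of transcripts that run opposite to it. Copies of mitochondrial sequence in nuclear chromosomes can also take reads, and how such reads were counted is not stated.

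The libraries held between 6664112 and 21392764 counted reads, and 14937 to 18550 genes had at least 1 count. XIST was at 52.3 to 261 CPM (library-size scaled counts, with the TMM factors of edgeR) in females and at 0.745 to 3.97 CPM in males. The Y-linked DDX3Y was at 31.9 to 152 CPM in males and at most 1.89 CPM in females. All 6 inner cell mass markers present in the table and all 10 trophectoderm markers were above 1 CPM in every library. Of 7 hypoblast markers, 4 were. The cumulus cell markers summed to between 5.38 and 32.7 CPM, with AMH and FOXL2 at 3 counts or fewer throughout. FSHR was the highest of them in every library, at 4.58 to 27.3 CPM. CYP19A1 reached 3.50 CPM, and in male replicate 2 HAS2 was at 6.45 CPM and TNFAIP6 at 4.76 CPM. Male replicate 5 stood apart, with the fewest genes detected, the most reads and the highest summed trophectoderm markers, 36145 CPM against 7879 to 23154 CPM in the other libraries. Of that sum, KRT8 alone was 20143 CPM. Some values are therefore also given without male replicate 5.

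Mitochondrial genes took a large part of each library. Among females, their share of all gene counts was lowest in replicate 6 at 6.15% and highest in replicate 3 at 8.30%, with a median of 7.39%. In males 1 to 5 the share was 8.07%, 5.75%, 8.98%, 8.31% and 3.97%. The values of the sexes overlapped, and both the highest and the lowest library were male. The share averaged 7.31% ± 0.847 (SD, n = 6) in females, and its mean in males was 7.02% ± 2.09 (SD, n = 5). The difference of -0.29 percentage points (male minus female) did not exceed the library-to-library spread (exact permutation test, two-sided, over 462 splits, p = 0.768, also 0.768 after Benjamini-Hochberg adjustment over 8 single values). It turned to 0.47 points without male replicate 5 and to 0.022 points without male replicate 2. Within the library numbers, the first number of a library's name, the difference was -0.41, 1.09 and -0.58 points for numbers 1, 2 and 3. In bulk libraries, fewer cells of a type and less RNA per cell cannot be told apart.

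The most abundant genes of the whole embryo transcriptome were among them. COX1 or COX3 was the most counted gene of all in 7 of the 11 libraries, and ACTB, the cytoskeletal actin, in the other 4. Between 2 and 7 of the 10 most counted genes of a library were mitochondrial. The 13 mRNAs held between 80.1% and 90.4% of the mitochondrial counts of a library, the 2 rRNAs between 9.08% and 19.2%, and the 22 tRNA genes between 0.544% and 1.68%. The labels give polyA RNA as the molecule sequenced, so the counts on rRNAs and tRNAs report what was captured through poly(A) and not the abundance of these RNAs in the cell.

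**Figure D1:**
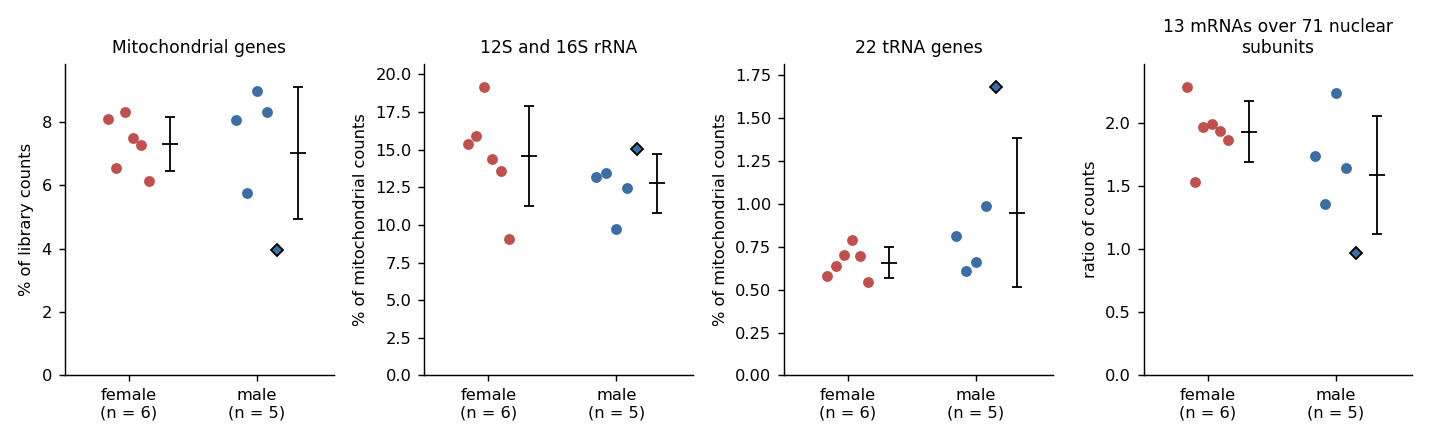
Each panel plots 1 value per library for 6 female (red) and 5 male (blue) libraries, with the mean and SD to the right. The panels give the percentage of library counts on the 37 mitochondrial genes, the percentages of mitochondrial counts on rRNAs and on tRNAs, and the ratio of the counts of the 13 mRNAs to those of 71 nuclear subunits. The diamond is male replicate 5, which has the lowest mitochondrial share (3.97%), the highest tRNA share (1.68%) and the lowest ratio (0.971).

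Levels per length were far from equal along the genome, although the genes share their precursors. COX3, a core subunit of cytochrome c oxidase, was the highest of the 15 mRNAs and rRNAs in all 11 libraries, at 18829 ± 5741 CPM per kilobase (SD, n = 11). ND4L, a small membrane subunit of complex I, was the lowest in all 11, at 472 ± 193 CPM per kilobase. Between them, the means per kilobase were 9992 for COX1, 9924 for ATP6, 8575 for COX2 and 5208 for CYTB. Next came 3969 for 16S rRNA, 3763 for 12S rRNA, 3039 for ND4, 2739 for ND2, 2340 for ND6 and 2000 for ND1. The lower end held 1514 for ATP8, 1242 for ND3 and 1030 for ND5. In these means, all mRNAs of complexes IV and III and ATP6 stood above the rRNAs, and every complex I mRNA below them.

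The steps of this order were not all larger than their spread. COX3 was above COX1 in all 11 libraries, with a log2 ratio of 0.90 ± 0.29 (SD). COX2 was above CYTB (0.74 ± 0.23) and ND5 above ND4L (1.17 ± 0.22) in all 11 as well. ATP6 stood above COX2 in 9 libraries (0.21 ± 0.14) and ND6 above ND1 in 10 (0.22 ± 0.21). The 9 other steps between neighbours were smaller than 1 SD. COX1 and ATP6 differed by a log2 ratio of 0.0013 ± 0.24, with COX1 higher in 7 libraries, and 16S and 12S by 0.051 ± 0.32, with 16S higher in 6.

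Genes read from a common mRNA were also counted unequally. ATP8 and ATP6, a membrane-anchored and a proton-channel subunit of ATP synthase, are translated from 1 transcript, and ATP6 was 5.11-fold to 10.4-fold higher per kilobase. With the same counts divided by only the bases that each shares with no other gene, it was 4.36-fold to 8.88-fold higher. ND4 and ND4L, likewise on a common transcript, differed by 4.88-fold to 12.1-fold per kilobase. With the length cut in the same way, they differed by 4.79-fold to 11.8-fold. No reads were recounted for this, so the unknown rule for shared bases still enters these ratios. ATP8 (201 bases) and ND4L (297 bases) are the shortest mRNA genes, and the part of gene length in these ratios was not tested. Counts on ND6, the mRNA gene of the other strand, were 1.83-fold to 3.83-fold higher per kilobase than on ND5, its neighbour on the opposite strand. As the counting rule for strand is not given, they can include reads of transcripts that run opposite to ND6.

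**Figure D2:**
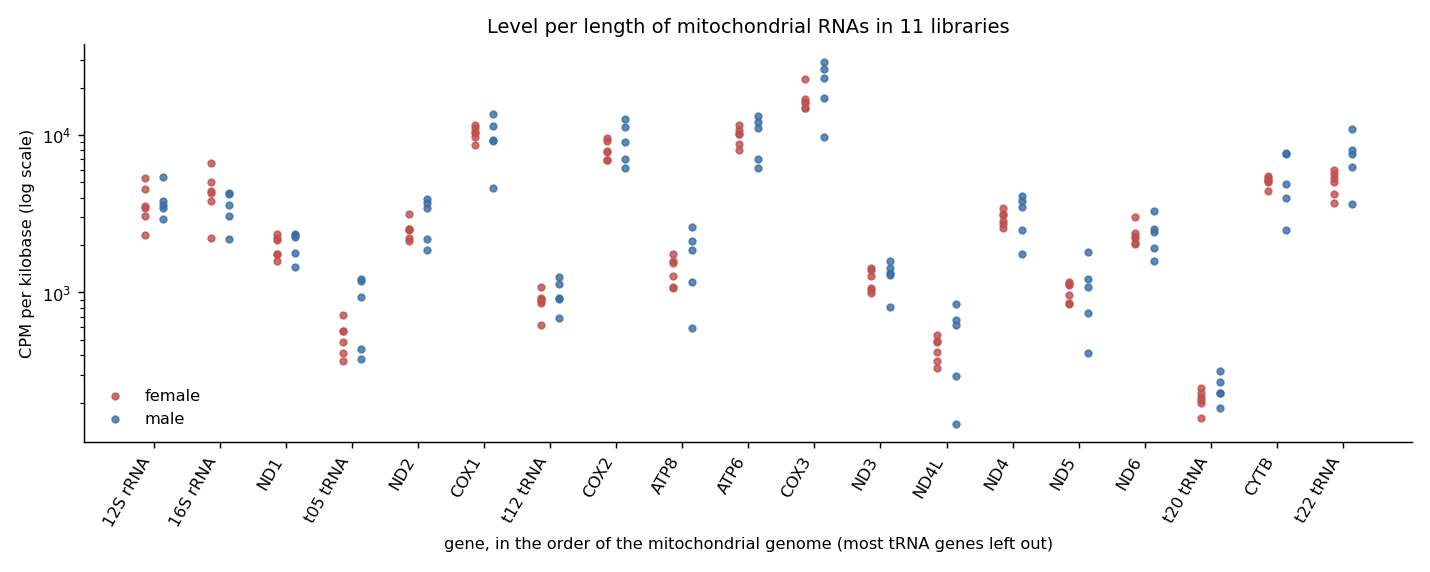
Points are single libraries, female in red and male in blue, and the log axis gives CPM per kilobase for the 13 mRNAs, 2 rRNAs and the 4 tRNA genes with the most counts, in the order of the genome. COX3 is the highest mRNA and ND4L the lowest mRNA in all 11 libraries, and the red and blue points overlap for every gene.

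Between the sexes, none of the 27 mitochondrial genes that passed the filter on low counts was called. These were the 13 mRNAs, 2 rRNAs and 12 tRNA genes, and the 10 remaining tRNA genes had too few counts to be tested. A call required more than a 1.5-fold change and a Benjamini-Hochberg FDR below 0.1 in the quasi-likelihood test of edgeR, which had the library number as a block. Over all 12802 tested genes this call fell on 1.91%, of which 0.414% of genes were higher in males and 1.5% higher in females. At an unadjusted p under 0.05 there was 1 mitochondrial gene, the tRNA gene KEH36_t22, where 13.2% of all tested genes had such a p. No mitochondrial gene had libraries of the sexes that did not overlap, a pattern seen in 3.31% of all tested genes. DESeq2 called 0 of them too, with or without the library number.

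Of the 27 tested genes, 23 had a positive log2 fold change (male over female) and 4 a negative one, with a median of 0.14, where the median of all tested genes was 0.0050. With TMM factors from autosomal genes ATP6 turned from 0.02 to -0.00068, and with the replicate number of the titles as the block at least 10 of the genes changed sign. For the 13 mRNAs the median was 0.09, and the values ran from -0.09 for COX1 to 0.32 for COX3. The 95% intervals of the mRNAs and rRNAs together stretched from -0.74 to 0.98, which leaves changes of more than 1.5-fold within reach for some genes. A missing call therefore does not show equal levels.

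**Figure D3:**
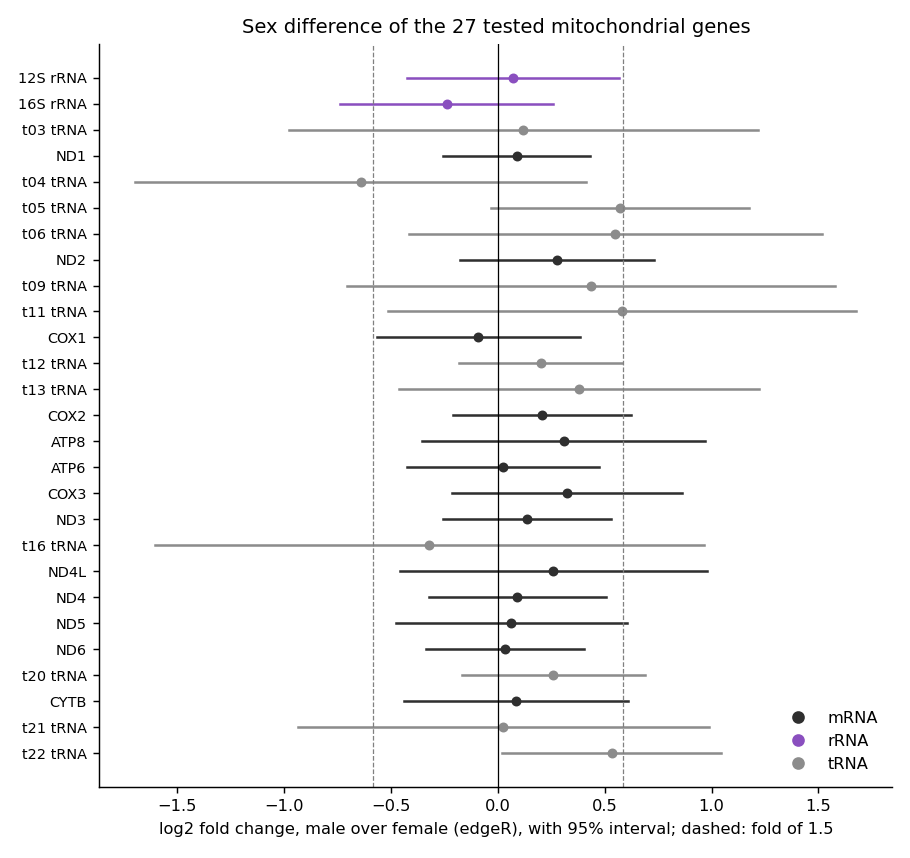
Points are log2 fold changes of males over females from edgeR for the 27 tested mitochondrial genes in genome order, and bars are 95% intervals. Dashed lines mark a fold of 1.5 in either direction. All intervals of mRNAs and rRNAs include 0, and that of the tRNA gene t22 starts at 0.02.

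The 3 mRNAs of complex IV, the oxidase that passes electrons to oxygen, made up most of the mRNA counts. COX3 (KEH36_p07, 8970 to 9750) was between 11628 and 17623 CPM in females (median 12567) and at 18051, 13503, 20646, 22694 and 7586 CPM in males 1 to 5. Male replicates 1, 3 and 4 were above all females, male replicate 2 was within their range and male replicate 5 lay below it. Its log2 fold change was 0.32 (SE 0.25, 95% interval from -0.21 to 0.86, adjusted p = 0.630). It was 0.51 without male replicate 5 (adjusted p = 0.182).

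COX1 (KEH36_p11, 5687 to 7231), the catalytic subunit with the site of oxygen reduction, was between 13407 and 17986 CPM in females (median 16073) and at 14136, 14308, 21085, 17620.2 and 7082 CPM in males 1 to 5. Male replicate 3 was the highest and male replicate 5 the lowest of all 11 libraries. The estimate was -0.09 (SE 0.22, 95% interval from -0.57 to 0.38, adjusted p = 0.904), and it turned to 0.09 without male replicate 5. COX2 (KEH36_p10, 7374 to 8057), which receives electrons from cytochrome c, was between 4761 and 6531 CPM in females (median 5374) and at 6135, 4794, 7670.3, 8591 and 4249 CPM in males 1 to 5. The ranges overlapped, with male replicates 3 and 4 above all females and male replicate 5 below them, and the log2 fold change was 0.21 (SE 0.19, 95% interval from -0.21 to 0.63, adjusted p = 0.696). Together the complex IV mRNAs held 58.0% ± 1.92 (SD, n = 6) of the mRNA counts in females. In males the figure was 58.6% ± 2.86 (SD, n = 5), a difference smaller than the spread (exact permutation test, p = 0.688, adjusted p = 0.768). The difference changed sign without female replicate 4 (-0.035 percentage points) and without male replicate 2 (-0.43 points).

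The 7 ND genes code for the membrane arm of complex I, the entry point for electrons from NADH. ND4 (KEH36_p04, 10529 to 11906), one of the proton-pumping subunits, was the highest of them per length and was between 3544 and 4751 CPM in females (median 4078). In males it was at 5229.5, 3413, 5637, 4795 and 2430.3 CPM in replicates 1 to 5. Male replicates 1, 3 and 4 exceeded every female, male replicates 2 and 5 fell below every female, and the estimate was 0.09 (SE 0.19, 95% interval from -0.32 to 0.50, adjusted p = 0.885).

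ND2 (KEH36_p12, 4266 to 5307), another pumping subunit, was between 2217 and 3283 CPM in females (median 2614) and at 3839.8, 2268, 3587, 4077 and 1936 CPM in males 1 to 5. The same 3 males were above all females, male replicate 2 was within their range and male replicate 5 below it. Its log2 fold change was 0.28 (SE 0.21, 95% interval from -0.18 to 0.73, adjusted p = 0.623). ND5 (KEH36_p03, 12109 to 13929), the longest of the mRNA genes and the outermost pumping subunit, was between 1528 and 2137 CPM in females (median 1895) and at 2208, 1347, 3291, 1973 and 754 CPM in males 1 to 5. Male replicate 3 was the highest library and male replicate 5 the lowest, with an estimate of 0.06 (SE 0.25, 95% interval from -0.48 to 0.60, adjusted p = 0.945).

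ND1 (KEH36_p13, 3101 to 4056), which helps to form the ubiquinone site, was between 1507 and 2252 CPM in females (median 1874) and at 2249, 1379, 2219.8, 2156 and 1711 CPM in males 1 to 5. Only male replicate 2 left the female range, and the estimate was 0.09 (SE 0.16, 95% interval from -0.26 to 0.43, adjusted p = 0.865). ND3 (KEH36_p06, 9823 to 10168), a small subunit, was between 345 and 498 CPM in females (median 405) and at 549.7, 278, 497, 462 and 447 CPM in males 1 to 5. Male replicate 1 was above the females and male replicate 2 below them. The log2 fold change was 0.14 (SE 0.18, 95% interval from -0.25 to 0.53, adjusted p = 0.799).

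ND4L (KEH36_p05, 10239 to 10535) was between 98.4 and 159 CPM in females (median 135) and at 199.7, 87.0, 249, 183 and 43.5 CPM in males 1 to 5. Male replicates 1, 3 and 4 were above every female and male replicates 2 and 5 below every female. The estimate was 0.26 (SE 0.33, 95% interval from -0.46 to 0.98, adjusted p = 0.791), and it was 0.51 without male replicate 5 (adjusted p = 0.254). ND6 (KEH36_p02, 13913 to 14440) was between 1077 and 1584 CPM in females (median 1191) and at 1336, 1012, 1745, 1282 and 838 CPM in males 1 to 5. Male replicate 3 was above all females, and male replicates 2 and 5 were below them. Its log2 fold change was 0.03 (SE 0.17, 95% interval from -0.34 to 0.40, adjusted p = 0.960).

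Set against the mean of the other 12 mRNAs per kilobase, ND6 had a log2 ratio of -1.15 ± 0.12 (SD, n = 6) in females. In males it was -1.24 ± 0.24 (SD, n = 5), not distinguishable from females (exact permutation test, p = 0.496, adjusted p = 0.768), with a difference of 0.0076 without male replicate 4. The ND genes together held 20.5% ± 1.35 (SD, n = 6) of the mRNA counts in females, and for males the value was 20.9% ± 2.53 (SD, n = 5). That difference was also smaller than the spread (exact permutation test, p = 0.719, adjusted p = 0.768). It changed sign without male replicate 1 (-0.13 percentage points) and without male replicate 5 (-0.29 points).

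CYTB (KEH36_p01, 14514 to 15653) is the one subunit of complex III in this genome and carries electrons between its quinone sites. It was between 5014 and 6227 CPM in females (median 5879) and at 5595, 4545, 8801, 8696 and 2854 CPM in males 1 to 5. The females lay close together, while male replicates 3 and 4 were above all of them and male replicates 2 and 5 below. The log2 fold change was 0.09 (SE 0.24, 95% interval from -0.44 to 0.61, adjusted p = 0.917).

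For ATP synthase, complex V, ATP6 (KEH36_p08, 8290 to 8970) was between 5443 and 7872 CPM in females (median 6953) and at 7501, 4767, 8286, 9057 and 4198 CPM in males 1 to 5. Male replicates 3 and 4 were above the females and male replicates 2 and 5 below, and the estimate was 0.02 (SE 0.21, 95% interval from -0.43 to 0.47, adjusted p = 0.980). ATP8 (KEH36_p09, 8129 to 8329) was between 216 and 354 CPM in females (median 283) and at 372, 233, 428, 523 and 119 CPM in males 1 to 5. It had 3 males above every female and 1 below, with a log2 fold change of 0.31 (SE 0.30, 95% interval from -0.35 to 0.97, adjusted p = 0.718). Without male replicate 5 it was 0.54 (adjusted p = 0.175), and without male replicate 4 it was -0.025.

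The rRNAs form the core of the mitochondrial ribosome. 12S rRNA (KEH36_r02), of the small subunit, was between 2203 and 5112 CPM in females (median 3326) and at 3630.2, 3307, 3440.4, 5166 and 2781 CPM in males 1 to 5. The highest female and the highest male differed little, and the estimate was 0.07 (SE 0.23, 95% interval from -0.43 to 0.57, adjusted p = 0.931). 16S rRNA (KEH36_r01), of the large subunit, was between 3474 and 10387 CPM in females (median 6812) and at 6718, 4824, 5681, 6633 and 3419 CPM in males 1 to 5. The 4 highest libraries included 1 male, the 2 lowest were male replicate 5 and female replicate 6, and the log2 fold change was -0.24 (SE 0.23, 95% interval from -0.74 to 0.26, adjusted p = 0.711).

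Of the 8 single values, the balance of the rRNAs had the smallest unadjusted p. Per kilobase, the log2 ratio of 16S to 12S lay between -0.09 and 0.54 in females (median 0.20). In males 1 to 5 it was 0.17, -0.17, 0.0055, -0.36 and -0.42. The males sat at the lower end, with 3 of them below all females and 2 inside the female range. The means were 0.22 ± 0.28 (SD, n = 6) and -0.16 ± 0.25 (SD, n = 5), a difference of -0.38 (exact permutation test, p = 0.0519, adjusted p = 0.312 over 8 single values). The difference had the same sign within library numbers 1, 2 and 3 (-0.11, -0.53 and -0.41). With libraries exchanged only within a library number, the centred difference was -0.32 (exact permutation test over 108 splits, p = 0.0370, adjusted p = 0.296 over the 8 single values). The unadjusted p was under 0.05 without female replicate 1 (0.0397), female replicate 6 (0.0397), male replicate 1 (0.0333) or male replicate 3 (0.0476). These were the lowest females and the highest males, so leaving any of them out could only widen the difference. Without male replicates 4 or 5, the lowest males, the unadjusted p went up to 0.105.

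The rRNAs together took 14.6% ± 3.31 (SD, n = 6) of the mitochondrial counts in females and 12.8% ± 1.96 (SD, n = 5) in males (exact permutation test, p = 0.305, adjusted p = 0.610). Without female replicate 6, the lowest female, the unadjusted p was 0.0397, but leaving that library out could only widen the difference. Leaving out female replicate 3, the highest female, narrowed it. Within library numbers 1, 2 and 3 the difference was -2.33, -7.05 and 2.43 percentage points, so its sign was not the same in each.

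Of the 22 tRNA genes, 4 carried nearly all tRNA counts. KEH36_t05 (4123 to 4194), KEH36_t12 (7229 to 7299), KEH36_t20 (14441 to 14509) and KEH36_t22 (15726 to 15791) held 93.8% to 98.3% of the tRNA counts of a library, with 124 to 11016 counts per gene. The 18 other tRNA genes had 0 to 135 counts per library, and 4 of them had 0 in at least 1 library. A count of 0 allows up to 3 counts in that library, for counting error only. Adjacent genes differed widely, since KEH36_t21 (15658 to 15726), which shares 1 base with KEH36_t22, was at 0.504 to 1.93 CPM in the libraries. The tRNA genes span 60 to 75 bases, less than the read length that the authors used. How reads that reach into a neighbouring gene were counted is not given, and its part in these differences was not tested.

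KEH36_t22 lies last before the control region, the stretch without genes that holds the promoters. It was between 244 and 395 CPM in females (median 342) and at 498, 239, 412, 718 and 534 CPM in males 1 to 5. Male replicates 1, 3, 4 and 5 were above all females and male replicate 2 was the lowest of all libraries. The log2 fold change was 0.53 (SE 0.24, 95% interval from 0.02 to 1.05, adjusted p = 0.357), with an unadjusted p of 0.0425 in the edgeR test. Per kilobase, its counts were 1.44-fold to 4.59-fold those of ND4, with the highest ratios in male replicates 4 (3.13) and 5 (4.59). The gene spans only 66 bases, so reads over it can extend beyond it, and this ratio does not compare RNA levels. Whether these reads come from a tRNA or from a longer RNA over it was not tested.

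KEH36_t05 lies between ND1 and ND2. It was between 26.4 and 52.0 CPM in females (median 37.9) and at 31.3, 27.1, 67.5, 87.5 and 85.6 CPM in males 1 to 5. Male replicates 3, 4 and 5 were above all females, and male replicates 1 and 2 were in the lower part of the female range. The estimate was 0.57 (SE 0.28, 95% interval from -0.03 to 1.18, adjusted p = 0.403). KEH36_t12, which follows COX1 and shares 3 bases with it, was between 44.2 and 76.5 CPM in females (median 63.5) and at 65.8, 64.9, 88.8, 80.8 and 49.0 CPM in males 1 to 5. The ranges overlapped and the log2 fold change was 0.20 (SE 0.18, 95% interval from -0.18 to 0.58, adjusted p = 0.678). KEH36_t20, between ND6 and CYTB, was between 11.02 and 17.1 CPM in females (median 14.6) and at 15.9, 15.9, 21.8, 18.7 and 12.6 CPM in males 1 to 5. Its 2 highest libraries were male, and the estimate was 0.26 (SE 0.20, 95% interval from -0.17 to 0.69, adjusted p = 0.626).

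The 6 other tRNA genes with a mean of at least 10 counts had estimates with wide intervals. KEH36_t13 was at 3.90 to 9.16 CPM in females and 1.65 to 8.82 CPM in males, and KEH36_t06 at 3.30 to 6.50 and 1.70 to 10.7 CPM. Their log2 fold changes were 0.38 (SE 0.39) and 0.55 (SE 0.44). KEH36_t04 stood at -0.64 (SE 0.48), KEH36_t09 at 0.44 (SE 0.52), KEH36_t03 at 0.12 (SE 0.50) and KEH36_t21 at 0.03 (SE 0.44). None of these genes passed the test. All tRNA genes together took 0.659% ± 0.0901 (SD, n = 6) of the mitochondrial counts in females and 0.9503% ± 0.435 (SD, n = 5) in males (exact permutation test, p = 0.0779, adjusted p = 0.312). The highest value, 1.68%, was that of male replicate 5. The unadjusted p was 0.0286 without male replicate 2 and 0.0381 without male replicate 3. These were the lowest males, so leaving either out could only widen the difference. Among single libraries left out, male replicate 5 narrowed it the most.

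Each mRNA and rRNA was also expressed as a share of the mitochondrial counts of its library, a view chosen after the data had been seen. Of the 15 shares, none differed at an adjusted p under 0.1 (exact permutation tests, adjusted over the 15 shares), and 3 had an unadjusted p under 0.05. COX3 took 18.8% ± 2.36 (SD, n = 6) of the mitochondrial counts in females and 21.9% ± 2.09 (SD, n = 5) in males (exact permutation test, p = 0.0476, adjusted p = 0.238). ND2 took 3.70% ± 0.196 and 4.30% ± 0.513 (exact permutation test, p = 0.0260, adjusted p = 0.227). COX2 took 7.80% ± 0.218 and 8.66% ± 1.05 (exact permutation test, p = 0.0303, adjusted p = 0.227). The sexes overlapped in each of them. COX1 went the other way, with 22.7% ± 1.66 in females and 19.99% ± 2.88 in males (exact permutation test, p = 0.0996, adjusted p = 0.373). Per kilobase, COX3 stood at 1.35-fold to 1.94-fold of COX1 in females and at 1.87-fold to 2.55-fold in males, a ratio formed after its parts had been seen and therefore not tested.

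**Figure D4:**
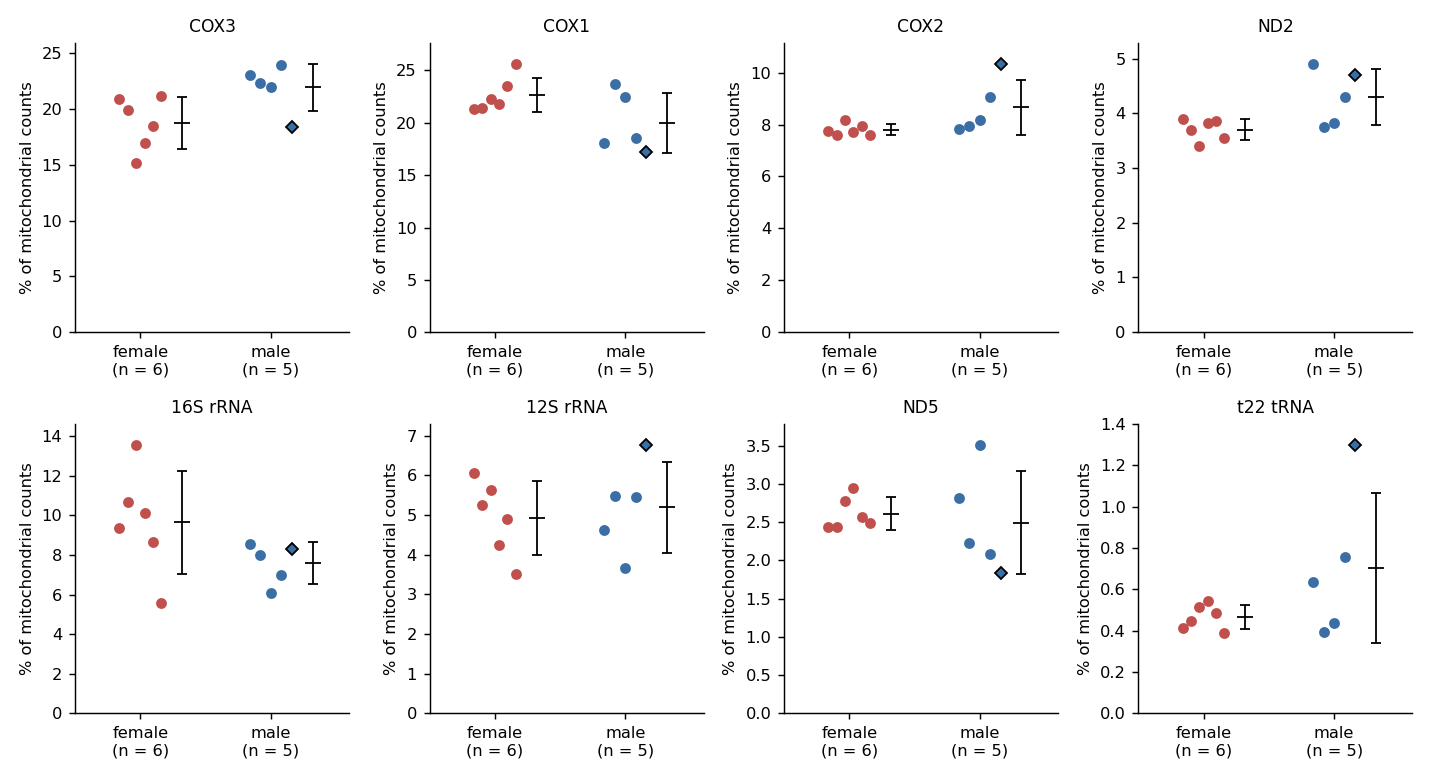
Each panel plots the percentage of a library's mitochondrial counts on 1 gene for 6 female (red) and 5 male (blue) libraries, with the mean and SD to the right and male replicate 5 as a diamond. The sexes overlap in every panel, and male replicate 5 has the highest share of COX2 (10.3%), 12S rRNA (6.76%) and t22 (1.30%) and the lowest of COX1 (17.2%) and ND5 (1.83%).

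Male replicate 5 differed from the others in level and in make-up. Its CPM was below those of all 10 other libraries for 12 of the 15 mRNAs and rRNAs. Of the 15 shares of mitochondrial counts, 6 were above the range of the other libraries, 5 below it and 4 within it. Those above were 12S rRNA, ND1, COX2, ATP6, ND3 and ND6, and those below were COX1, ATP8, ND4L, ND5 and CYTB. ND1 stood at 4.16% against 2.20% to 3.28%, and ND3 at 1.09% against 0.460% to 0.703%. ND4L stood at 0.106% against 0.144% to 0.265%. In the same library, the summed trophectoderm markers were the highest and the summed hypoblast markers the lowest (208 CPM against 228 to 621 CPM in females and 314 to 467 CPM in the other males). Summed inner cell mass markers, at 888 CPM, were within the range of the other males (792 to 1076 CPM). Single markers did not all follow these sums. KRT8 was at 20143 CPM against at most 7314 CPM elsewhere, and KRT18, DAB2 and CDX2 were also the highest. GATA2, GATA3, TFAP2A, TFAP2C, PTGS2 and LGALS3 were each higher in another library. PDGFRA and COL4A1 were the lowest, while HNF4A and SOX17 were near the top. POU5F1 and LIN28A were the highest, and SPIC and KLF17 the lowest. The part of cell make-up in the mitochondrial values was not tested.

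Over the library numbers, whose meaning the labels do not give, 0 of the 27 mitochondrial genes differed at an FDR below 0.1 (quasi-likelihood test of edgeR, adjusted p from 0.693 to 0.973), and 0 had an unadjusted p under 0.05. Over all tested genes, 0.00781% passed. The biological coefficient of variation, the spread between libraries beyond counting error, had a median of 0.256 over the 13 mRNAs (0.204 to 0.386) and was 0.271 and 0.272 for the rRNAs. Over the 12 tested tRNA genes the median was 0.455. The 1463 tested genes at least as abundant as the lowest mRNA had a median of 0.217.

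Nuclear genes that act on mitochondrial DNA and RNA were read from the same fit. Of 60 listed, 59 were tested. The test called 0 of them, against 1.91% of all tested genes, and 9 had an unadjusted p under 0.05, a share near the 13.2% of all tested genes. DESeq2 called 3 with the library number, where it called 163 genes higher in males and 492 higher in females among 23857. Without the number it called 2, and 215 and 524 among 23682. Among the 22 genes of transcription and replication, 16 had a positive log2 fold change and 6 a negative one, with a median of 0.08. TFAM, which packages and bends mitochondrial DNA at its promoters, was at 177 to 277 CPM in females and 117 to 262 CPM in males. POLRMT, the polymerase that transcribes it, was at 8.79 to 14.0 CPM and 4.65 to 11.5 CPM. The smallest p was that of MGME1, a nuclease that trims replication ends, at 11.3 to 15.4 CPM in females and 17.7 to 20.3 CPM in males. Its libraries did not overlap, but its log2 fold change of 0.52 (SE 0.18) did not pass the test (edgeR, adjusted p = 0.228). Of the 59 tested genes, 2 had no overlap, MGME1 and the translation factor MRRF. That share is near the 3.31% of all tested genes.

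Among the 26 genes of RNA processing, polyadenylation and decay, 17 were positive and 9 negative, with a median of 0.12. HSD17B10, the X-linked subunit of the enzyme that cuts tRNA ends, had the smallest p. It was at 317 to 478 CPM in females and 224 to 366 CPM in males, with a log2 fold change of -0.59 (SE 0.16, edgeR, adjusted p = 0.111). DESeq2 with the library number called it (adjusted p = 0.0487), together with PPARGC1A (0.0774), a coactivator of mitochondrial genes that was at 7.56 CPM or less in every library, and FASTK (0.0826). PPARGC1A and FASTK are named because DESeq2 called them. TFAM and POLRMT are named for their role, after their values had been seen. Of the 11 tested translation factors, 9 were positive and 2 negative, with a median of 0.21. MRRF, the ribosome recycling factor, was at 60.9 to 88.8 CPM in females and 91.4 to 121 CPM in males, without overlap, and its log2 fold change of 0.50 (SE 0.15) did not pass (edgeR, adjusted p = 0.170).

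The nuclear partners of the 13 mRNAs, 71 listed subunits of complexes I, III, IV and V, were all tested. The call fell on 4 of them, against 1.91% of all tested genes, and 40 had an unadjusted p under 0.05, against 13.2%. Of the 71, 65 had a positive log2 fold change and 6 a negative one, with a median of 0.36, while 6470 of all tested genes were positive and 6332 negative. The called genes higher in males were CYC1, the cytochrome c1 of complex III (log2 fold change 0.68, edgeR, adjusted p = 0.0723), and UQCRC1, a core subunit of complex III (0.76, adjusted p = 0.0707). Those higher in females were NDUFA1 (-0.94, adjusted p = 0.0102) and NDUFB11 (-0.65, adjusted p = 0.0636), both X-linked subunits of complex I. The count of 4 went down to 1 when female replicate 2, 4 or 5 was left out, and likewise when male replicate 1, 2 or 3 was. It was 2 without female replicate 1 or female replicate 6, and 3 without male replicate 5. It was 5 without female replicate 3 and 6 without male replicate 4. NDUFA1 alone was called in every such fit. The calls over all genes moved with these fits too. From 53 higher in males and 192 in females, they fell to 22 and 83 without female replicate 2. Without male replicate 3 they were 15 and 80, and without male replicate 4, 51 and 171. They rose to 92 and 272 without male replicate 5.

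Set against these partners, the 13 mRNAs had a ratio of counts between 1.54 and 2.29 in females (median 1.95). In males 1 to 5 it was 1.74, 1.36, 2.24, 1.65 and 0.971. The mean log2 ratio was 0.94 ± 0.19 (SD, n = 6) in females and 0.62 ± 0.45 (SD, n = 5) in males (exact permutation test, p = 0.136, adjusted p = 0.364), and the sexes overlapped. Without male replicate 3, the highest male, the unadjusted p was 0.0190, but leaving that library out could only widen the difference. Leaving out male replicate 5, the lowest male, narrowed it the most. Within library numbers 1, 2 and 3 the difference was -0.29, 0.18 and -0.59.

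**Figure D5:**
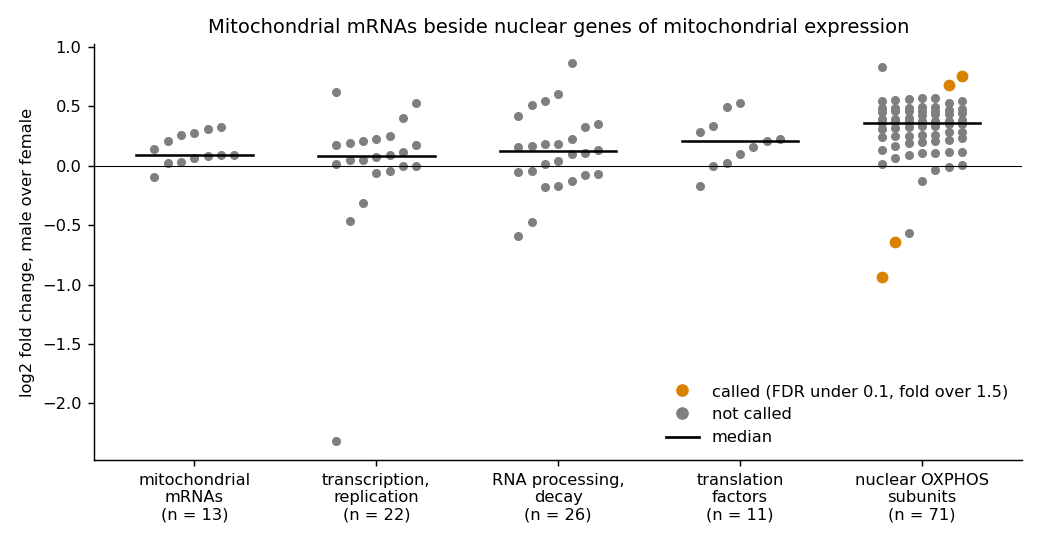
Points are log2 fold changes of males over females from edgeR for the 13 mitochondrial mRNAs and for 4 lists of nuclear genes, with lines at the medians. Orange points are called genes. The medians are 0.09 for the mitochondrial mRNAs and 0.36 for the 71 nuclear subunits, and all 4 called genes are nuclear subunits.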

How the data were processed

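Pools of 2 pieces of sexed expanded blastocysts were sequenced as 6 female and 5 male libraries, and each pool was 1 replicate. A long-read sample of 4-cell embryos was not used here. The authors trimmed reads with fastp 0.20.0, aligned them to ARS-UCD2.0 with STAR 2.7.10b, counted them on genes with featureCounts and deposited whole-number counts per gene, without normalization. The settings for strand, overlapping genes and reads with several hits are not given in the sources used here. Counted reads per library ranged from 6664112 to 21392764, and no libraries were copies of each other (correlations of log2 CPM from 0.861 to 0.963 within a sex, across genes).

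Counts were analysed with edgeR 4.0.16 in R 4.3.3. Genes were filtered with filterByExpr by sex and scaled with TMM factors, and the sexes were compared with the quasi-likelihood test over all 12802 remaining genes with Benjamini-Hochberg adjustment. The block was the library number, the first number of a library's name, in place of the collection week that the authors adjusted for, which the labels do not give. A positive log2 fold change stands for a higher level in males. Levels are CPM with TMM factors, and per kilobase of the RefSeq gene span where genes are compared. Single values were compared by exact permutation, two-sided, over 462 splits, whose smallest p is 0.00216 (python 3.11.15, numpy 2.4.6, pandas 2.3.3, scipy 1.17.1). The tests were tested on simulated data.

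All mRNAs and rRNAs, and tRNA genes with a mean of at least 10 counts, are given singly. Of the nuclear lists, called genes and the gene with the smallest p in each list are named. The mitochondrial genes, the nuclear lists and the markers were chosen with earlier results of these data known. The 15 gene shares, and the permutation within library numbers, were added after the data were seen. The alternatives were fits without the block or with the title's replicate number as block, DESeq2 1.42.0, other scaling factors, other filters, a stricter FDR, other denominators and lengths, and leaving out each library.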

Additional observations from a re-analysis of the deposited data

Results flagged for a closer look

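In 4 of 66 groups, 1 library lay further from the others than Dixon's 95% limit allows, and chance flags about 1 in 20 groups. Female replicate 1 had the highest female CPM of COX3, 17623, with the next female at 13228. The same library had the highest female CPM of ND6, 1584, with the next at 1255. For the tRNA gene KEH36_t13, female replicate 3 was at 9.16 CPM, with the next female at 5.78, and male replicate 5 was at 1.65 CPM, with the next male at 6.97. None of these genes was called between the sexes.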

How the results depend on the processing

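The count of called mitochondrial genes was 0 under every alternative that was run, and so was the count that differed by library number and the count of gene shares that differed. Nuclear genes of mitochondrial DNA expression, 0 as reported, numbered 3 with DESeq2 and the library number, 2 with DESeq2 without it, 1 with TMM factors from autosomal genes, 2 with every gene that had a count, 1 with at least 10 counts in every library, and 0 to 1 when single libraries were left out. The 4 called nuclear subunits became 9 without the replicate block, 1 with the title number as block, 11 with DESeq2 without the library number, 1 at an FDR of 0.05, and 1 to 6 when single libraries were left out. The calls over all genes changed as well. Those higher in males and in females, 53 and 192 of 12802 as reported, were 96 and 230 without the block. They were 24 and 109 of 12503 with the title number and 21 and 104 at an FDR of 0.05. DESeq2 without the library number gave 215 and 524 of 23682. The causes were not tested.

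Leaving out single libraries moved the male minus female difference of the mitochondrial share from -0.79 to 0.47 percentage points, of the rRNA share from -2.91 to -0.887, of the tRNA share from 0.108 to 0.377, of the complex I share from -0.29 to 1.12 and of the complex IV share from -0.43 to 1.45. The log2 ratio of 16S to 12S moved from -0.46 to -0.31, that of ND6 to the other mRNAs from -0.16 to 0.0076 and that of mitochondrial to nuclear counts from -0.46 to -0.16. The fold changes of 13 genes, none of them called, changed sign under some alternative. Their ranges over single libraries left out were -0.15 to 0.22 for 12S rRNA, -0.076 to 0.33 for KEH36_t03, -0.0025 to 0.20 for ND1, -0.26 to 0.095 for COX1, -0.0016 to 0.63 for KEH36_t13, -0.025 to 0.54 for ATP8, -0.17 to 0.15 for ATP6, -0.049 to 0.23 for ND4, -0.15 to 0.26 for ND5, -0.13 to 0.13 for ND6, -0.17 to 0.27 for CYTB and -0.095 to 0.23 for KEH36_t21. Without the block, KEH36_t03 was at -0.050 and KEH36_t21 at -0.027. With DESeq2 without the library number they were at -0.037 and -0.021. TMM factors from autosomal genes gave ATP6 -0.00068.

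Whether either number in the names pairs the libraries was not tested. Correlations of same-numbered male and female deviations were -0.11, 0.24, 0.35, 0.028 and -0.067 for the replicate number of the titles and 0.012, 0.37 and 0.20 for the library number. With the replicate block on the title number, which leaves out female replicate 6, the log2 fold changes were -0.075 for 12S rRNA, -0.11 for KEH36_t03, -0.014 for ND1, -0.10 for ATP6, -0.037 for ND4L, -0.044 for ND4, -0.15 for ND5, -0.073 for ND6, -0.061 for CYTB and -0.29 for KEH36_t21. Over all genes, that block gave 133 calls and no block 326, against 245. The replicate block on the library number gave a 16S to 12S difference of -0.32 (permutation within the library number only, p = 0.0370, adjusted p = 0.296). Permutation of the centred values over all splits gave an unadjusted p of 0.0152, but it does not keep libraries within their number and is not relied on. For the 7 other single values the unadjusted p stayed above 0.05 with that block.

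Counts of at most 135 per library limit the 18 lesser tRNA genes. The number of libraries limits the rest, since 95% intervals of the mRNAs reach 1.97-fold.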
